A study of Mus musculus with 6 samples.

Results

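Both arrays of replicate experiment C were set against both arrays of replicate experiment B. The members are 4 of the 6 arrays of the series, chosen by the experiment letter in their titles. Each side holds 1 array of embryoid bodies without doxycycline and 1 array with doxycycline by its label, and the sides are separate experiments. All 45037 probe sets that are not array controls were used.

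The cells were mouse embryonic stem cells of the Hoxb4i line, which carries an integrated tet-on cassette that expresses HOXB4 when doxycycline is added. All 6 cultures came from this 1 line, which limits them as a model to its genetic background. Stem cells were plated at 3500 cells per ml and left to aggregate into embryoid bodies. Induced cultures received doxycycline at 2 µg per ml from day 4, and all cultures were lysed on day 6 after the 48 hours of induction. The uninduced B and C arrays therefore come from embryoid bodies that never saw doxycycline, and the induced B and C arrays from embryoid bodies exposed to it for the last 48 hours. Here uninduced and induced name the labelled treatment. The gene of the cassette, Hoxb4, was read by 2 probe sets. On the brighter one its signals, uninduced before induced, were 253 and 261.4 in B, 27.6 and 150.7 in C and 78.2 and 136.3 in A. On the other they were 119.8 and 129.5 in B, 113.5 and 175.5 in C and 46.5 and 116.4 in A. The induced signal was thus 1.03 and 1.08 times the uninduced one in B, against 5.46 and 1.55 times in C and 1.74 and 2.50 times in A. So neither probe set showed a clear rise with doxycycline in B, and no label or table says whether they read the transcript of the cassette. The amount of induction may therefore differ between the sides, and its part in the differences below was not tested. The study itself set induced against uninduced cultures. It names experiments A, B and C as its 3 biological replicates.

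Embryoid bodies are free-floating balls of differentiating stem cells in which the 3 germ layers form side by side without the order of an embryo. Signals of the Wnt, FGF and BMP families steer the cells: BMP and Wnt signals favour mesoderm, with its blood, vessel and heart derivatives, while cells sheltered from BMP tend to form neural tissue. In the embryo the midbrain and the cerebellum are patterned from the isthmus, a boundary that secretes FGF8 and WNT1 between territories of Otx2 and Gbx2. RNA was taken from whole embryoid bodies, so fewer cells of a type and less RNA per cell of that type cannot be told apart anywhere below.

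RNA was hybridised to Affymetrix Mouse Genome 430 2.0 arrays, and the deposited signals were on a linear scale with a trimmed mean of 500 on each array. In B the uninduced array had a median signal of 92.3 and the induced array of 92.0, and in C these medians were 99.9 and 108.6. The ratio of 3' to 5' signal of Actb, a check of RNA integrity, lay between 1.26 and 1.48 on these 4 arrays, and that of Gapdh between 0.865 and 0.903. Differences are given as C minus B on the log2 scale after adding 18.8, the 20th percentile of all signals, to each signal, so folds of weakly expressed genes are understated. Pairs of signals are always given with the uninduced array before the induced array. Tests are those of limma with Benjamini-Hochberg adjustment over all probe sets, and a gene or probe set passed at an adjusted p under 0.05. Only 2 arrays stand on each side, and the spread in the test is that between an induced and an uninduced array of 1 experiment. Of the 45037 probe sets, 34945 were named for a single gene, and the 18193 genes are each represented by the probe set with the highest mean signal over the 6 arrays.

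The 2 experiments differed over a wide range of genes. Among probe sets, 2018 were higher in C (4.48%) and 2079 lower (4.62%). Among genes, 1165 were higher in C (6.4%) and 1246 lower (6.85%), and the median over all genes was 0.09. A difference over 4-fold was passed by 293 higher and 353 lower genes, and one over 16-fold by 43 and 40. Over probe sets the SD of C minus B was 0.88 between the uninduced arrays and 0.91 between the induced arrays, while that of induced minus uninduced was 0.62 in B and 0.69 in C. The typical precision was limited: the 95% interval of a gene's difference had a median width of 0.72 to each side.

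**Figure D1:**
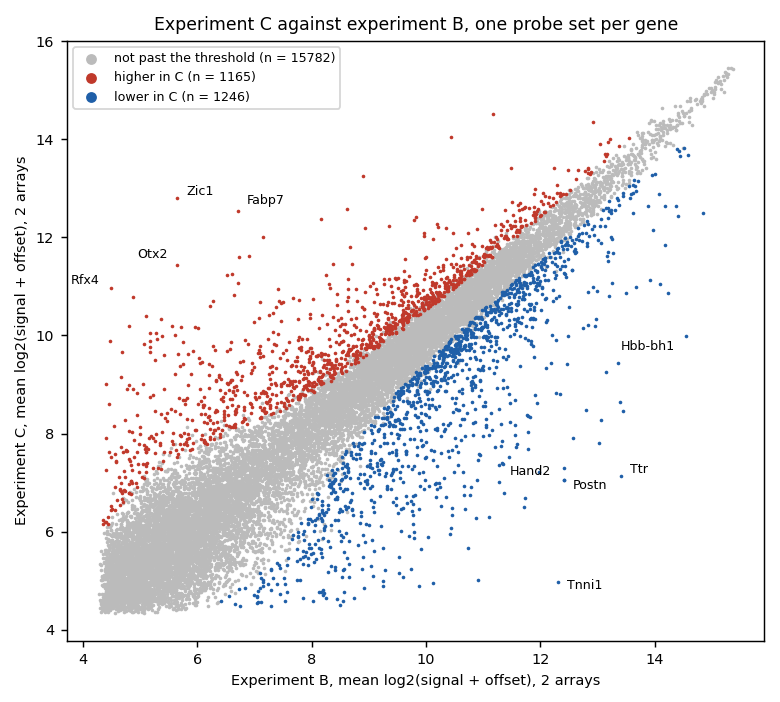
Mean log2(signal + 18.8) of each of 18193 genes over the 2 arrays of experiment B (horizontal axis) and of experiment C (vertical axis); red points are the 1165 genes higher in C and blue points the 1246 lower genes. Zic1, Rfx4, Fabp7 and Otx2 stand far above the diagonal, and Tnni1, Ttr, Hand2 and Postn far below it.

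How many genes passed depended on each array. Without uninduced B 307 genes were higher and 373 lower, and without induced B the counts were 310 and 361. Without uninduced C they were 717 and 932, and without induced C 491 and 823. In all 4 of these fits 245 higher and 313 lower genes passed, and genes counted below as kept are those. Over the 68 lists, 33 counts in 1 direction were of 1 or 2 genes, and 20 of these were at 0 in at least 1 of the 4 fits. A fit without the intensity trend in the variance passed 153 higher and 222 lower genes. Of the 218 genes named in this text that passed, 61 did not pass then, with adjusted p from 0.0511 to 0.329, among them Axin2, Dusp6, Fgf15, Jag1, Olig3, Tubb3, Wnt3a, Tnnt2, Kdr and Tal1. Centring each array on its median, which moves C down against B by 0.15, left the direction of every gene and probe set that passed as it was, but turned the split of probe sets from 2018 higher and 2079 lower to 1218 and 2538.

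Genes of the early brain led the rise in C, and genes of heart, endoderm, blood and connective tissue led the fall. Zic1, a zinc finger factor of the dorsal neural tube, had signals of 47.0 and 19.5 in B and 6391 and 7907 in C. The groups lay far apart, with C minus B at 7.15 ± 0.26 (SE), a 142-fold difference, adjusted p = 5.20e-06. Tnni1, the slow skeletal and fetal cardiac troponin I, had signals of 5126 and 4969 in B against 13.3 and 12.2 in C. Its difference of -7.33 ± 0.19 (SE), a 161-fold difference, adjusted p = 2.36e-06 was the largest of any gene that passed. Rfx4, a factor of neural tube and ciliated cells, read 6.20 and 1.20 in B and 1770.1 and 2231 in C (C minus B 6.49 ± 0.30). Ttr, the thyroxine carrier made by yolk sac endoderm and liver, read 11110.3 and 10701 in B and 91.2 and 159.7 in C (-6.28 ± 0.21). Of the 30 genes that rose most, 9 belonged to the list for midbrain, isthmus and cerebellum and 6 to that for neural progenitors. Of the 30 that fell most, 5 belonged to the fibroblast list, 3 to cardiac regulators, 3 to heart contraction, 3 to visceral endoderm, and 2 each to endothelium, to erythroid cells and to imprinted genes.

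**Figure D2:**
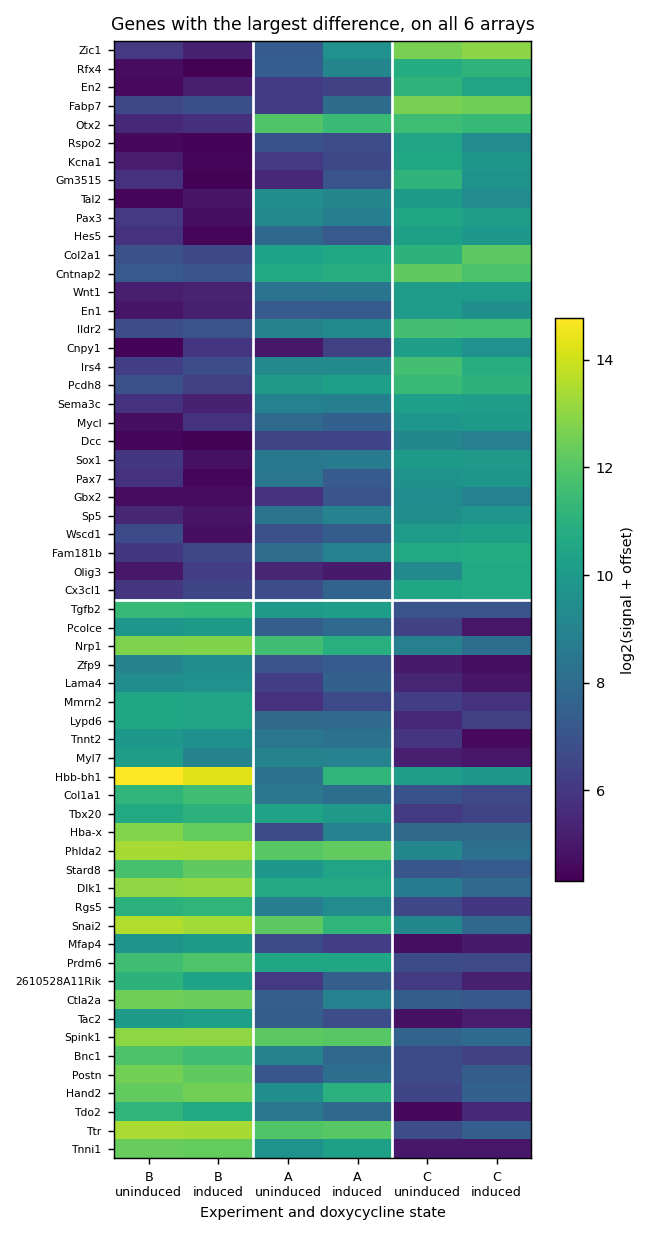
Log2(signal + 18.8) of the 30 genes that rose most and the 30 that fell most in C against B, 1 row per gene, on all 6 arrays in the order B, A and C. The genes were chosen for their difference between these B and C arrays, so the separation of the 2 sides follows from the choice. The 2 arrays of experiment A take values of either side depending on the gene.

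The promoters of Zic1 and Tnni1, which differed most in each direction, are shown as a CG-rich and a CG-poor example and do not stand for their sets: among other leading genes that of Otx2, higher in C, holds 6 CG and that of Bnc1, lower in C, holds 50. The windows run from 250 bases before to 50 after the annotated start (RefSeq, GRCm38.p6), 5′ to 3′ on the gene's strand, with CG dinucleotides in capitals. That of Zic1 lies at chr9:91365719-91366018 on the minus strand and holds 31 CG, with 83.7% of all promoters holding fewer. That of Tnni1, one of 2 listed for the gene, lies at chr1:135799171-135799470 on the plus strand and holds 5 CG, with 19.7% of promoters holding fewer.
Zic1: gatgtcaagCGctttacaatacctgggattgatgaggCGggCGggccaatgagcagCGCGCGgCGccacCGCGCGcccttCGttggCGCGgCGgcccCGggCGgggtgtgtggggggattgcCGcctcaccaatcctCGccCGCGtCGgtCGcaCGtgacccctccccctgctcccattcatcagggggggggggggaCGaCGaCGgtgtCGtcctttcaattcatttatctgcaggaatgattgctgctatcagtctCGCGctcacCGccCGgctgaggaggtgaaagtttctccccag
Tnni1: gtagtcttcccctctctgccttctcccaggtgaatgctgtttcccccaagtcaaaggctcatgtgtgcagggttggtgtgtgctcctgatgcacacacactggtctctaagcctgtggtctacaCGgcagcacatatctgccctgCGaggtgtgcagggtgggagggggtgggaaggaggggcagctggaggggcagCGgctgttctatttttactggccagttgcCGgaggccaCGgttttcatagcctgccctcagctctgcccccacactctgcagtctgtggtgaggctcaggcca

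Over the promoters of genes higher in C the median number of CG was 21 (1227 promoters of 929 genes), over those of lower genes 18 (1272 promoters of 963 genes), and over all genes tested 16 (18109 promoters of 14452 genes). Short motifs were counted on both strands in the same windows, as descriptions with no test. The letters ACAAAG, read by SOX factors, were found in 16.1% of promoters of higher genes, 11.1% of those of lower genes and 15.9% of all. GTTGCC, from the site of RFX factors, was found in 13.4%, 10.1% and 12.8%. The E-box CAGCTG was found in 16%, 19.6% and 16.4%, and TGTTTAC, read by forkhead factors, in 1.79%, 3.38% and 2.98%. AGATAA, read by GATA factors, was found in 5.87%, 7.78% and 8.09%, and the TATA box letters TATAAA in 8.48%, 9.98% and 9.77%. The E-box CACGTG was found in 8.07%, 7.86% and 8.72%, and the homeodomain letters TAATTA in 2.69%, 2.59% and 3.41%. TGATTGAT, of TALE with Hox factors, was found in 0.73%, 0.63% and 0.51%, and the ETS letters ACCGGAAG in 2.85%, 1.73% and 3.40%. The median GC content of the promoters was 62%, 61% and 58.3%.

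Genes that pattern the midbrain and its boundary with the hindbrain were the list with the highest median. Of 29 listed genes on the array, 18 were higher in C and 0 lower, with a median of 2.18 against 0.09 over all genes, where 6.4% were higher. En2, a homeobox gene of midbrain and cerebellum, had signals of 4.80 and 17.8 in B and 2225 and 1360.1 in C. Its difference was 5.90 ± 0.35 (SE), a 59.8-fold difference, adjusted p = 3.93e-05, and that of its relative En1 was 4.75 ± 0.36. Otx2, the determinant of forebrain and midbrain, read 26.9 and 35.5 in B and 2964 and 2542 in C (5.79 ± 0.21). Gbx2, which marks the hindbrain side of the isthmus, read 6.40 and 6.80 in B and 654 and 468 in C (4.49 ± 0.42). So genes of both sides of the boundary were high on both C arrays and close to the offset on both B arrays. Wnt1 read 18.1 and 22.4 in B and 1042 and 1037 in C (4.76 ± 0.29), and Fgf8 read 84.6 and 68.7 and 996 and 678 (3.14 ± 0.27). Cnpy1, an FGF modulator of the isthmus, differed by 4.72, and the paired box genes Pax3 and Pax7 of the dorsal neural tube by 4.96 and 4.58. Irx2 differed by 2.83 and Spry1, an inhibitor that FGF signals induce, by 2.75. Fgf17 and Fgf18, further ligands of the isthmus, differed by 2.18 and 1.98 but did not pass. 12 of the 18 were kept in every fit without 1 array, and the count went from 13 without induced B or induced C to 16 without uninduced C.

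Pan-neural progenitor genes were higher in C along with them. Of 40 listed, 27 were higher and 2 lower, with a median of 2.00. Fabp7, the fatty acid binding protein of radial glia, had signals of 75.7 and 96.4 in B and 6253 and 5626 in C, a difference of 5.83 ± 0.16 (SE), a 57.0-fold difference, adjusted p = 2.36e-06. Sox2, which holds neural and pluripotent progenitors, read 429 and 322 in B and 6163 and 6065 in C (3.97 ± 0.15). Its relatives Sox1, Sox3 and Sox21 differed by 4.59, 3.59 and 3.28. Zic5 and Zic4 differed by 4.36 and 3.25, the Notch target Hes5 by 4.88, and Nes, the intermediate filament nestin, by 2.75. Ptn, a secreted growth factor, read 586 and 354 in B and 11298 and 8371 in C (4.36 ± 0.23). Olig3, a factor of dorsal progenitors, read 13.3 and 54.5 in B and 624 and 1618 in C (4.40 ± 0.52). The 2 lower genes of the list, Vim (-0.77) and Plagl1 (-0.76), are also expressed in mesenchyme, and their calls were lost in some fits, with adjusted p as Vim (0.102 without induced B, 0.0758 without uninduced B, 0.0504 without uninduced C) and Plagl1 (0.0851 without induced B, 0.126 without uninduced B, 0.0536 without uninduced C). 22 of the 27 were kept without any 1 array.

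Lists for other parts of the neural axis had a smaller share of higher genes than the midbrain list, a difference that was not tested. The share was 62.1% in the midbrain list and 6.4% over all genes. In the list for forebrain and eye field 9 of 34 were higher and 0 lower, with a median of 0.66. Over the 17 genes left by the filter at the 40th percentile of the mean signal the median was 1.66. That mean is over all 6 arrays, C among them, so a gene high in C alone can pass the filter. The midbrain median rose under it too, to 2.75. Otx1 (4.23), Sp8 (3.96) and Dmrta2 (2.69) were among the higher genes, while Six3 at -0.35 and Fezf2 at 0.56, which mark the anterior forebrain and eye, did not pass. The list for hindbrain and spinal cord had 5 higher and 3 lower genes of 34, with a median of 0.42. Msx3, of the dorsal neural tube, read 29.9 and 67.6 in B and 1072 and 1165 in C (4.13 ± 0.32). The ventral gene Olig2 at 0.43 and the floor plate genes Shh at 1.04 and Foxa2 at -0.83 did not pass. The roof plate gene Rspo2, an enhancer of Wnt signals, did, with 4.50 and 2.30 in B and 1341 and 633 in C (5.41 ± 0.45). In the joint list for floor plate and roof plate 10 of 20 were higher (50%) and 3 lower, with a median of 0.88. That share is the nearest of these to the midbrain list, and dorsal and ventral genes were not compared as sets. Genes of new neurons were also higher in a smaller share, with 21 of 59 higher (35.6%), 4 lower and a median of 1.07. The microtubule genes Map2, Tubb3 and Stmn2 differed by 4.19, 3.77 and 3.10. Stmn2 read 315 and 306 in B and 2694 and 2933 in C. Of the 45 synapse genes 4 were higher and 1 lower (median 0.52), and 0 of them kept the call without any 1 array. In the forebrain list the count of higher genes went from 5 without uninduced B or uninduced C to 6 without induced B or induced C, and in the list of new neurons from 10 without induced B to 18 without induced C. The count of lower hindbrain and spinal cord genes went from 0 without uninduced B or induced B to 4 without uninduced C, and that of lower new neuron genes from 0 without uninduced B or induced B to 4 without induced C. Higher synapse genes went from 0 without uninduced B or induced B to 3 without uninduced C or induced C.

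**Figure D3:**
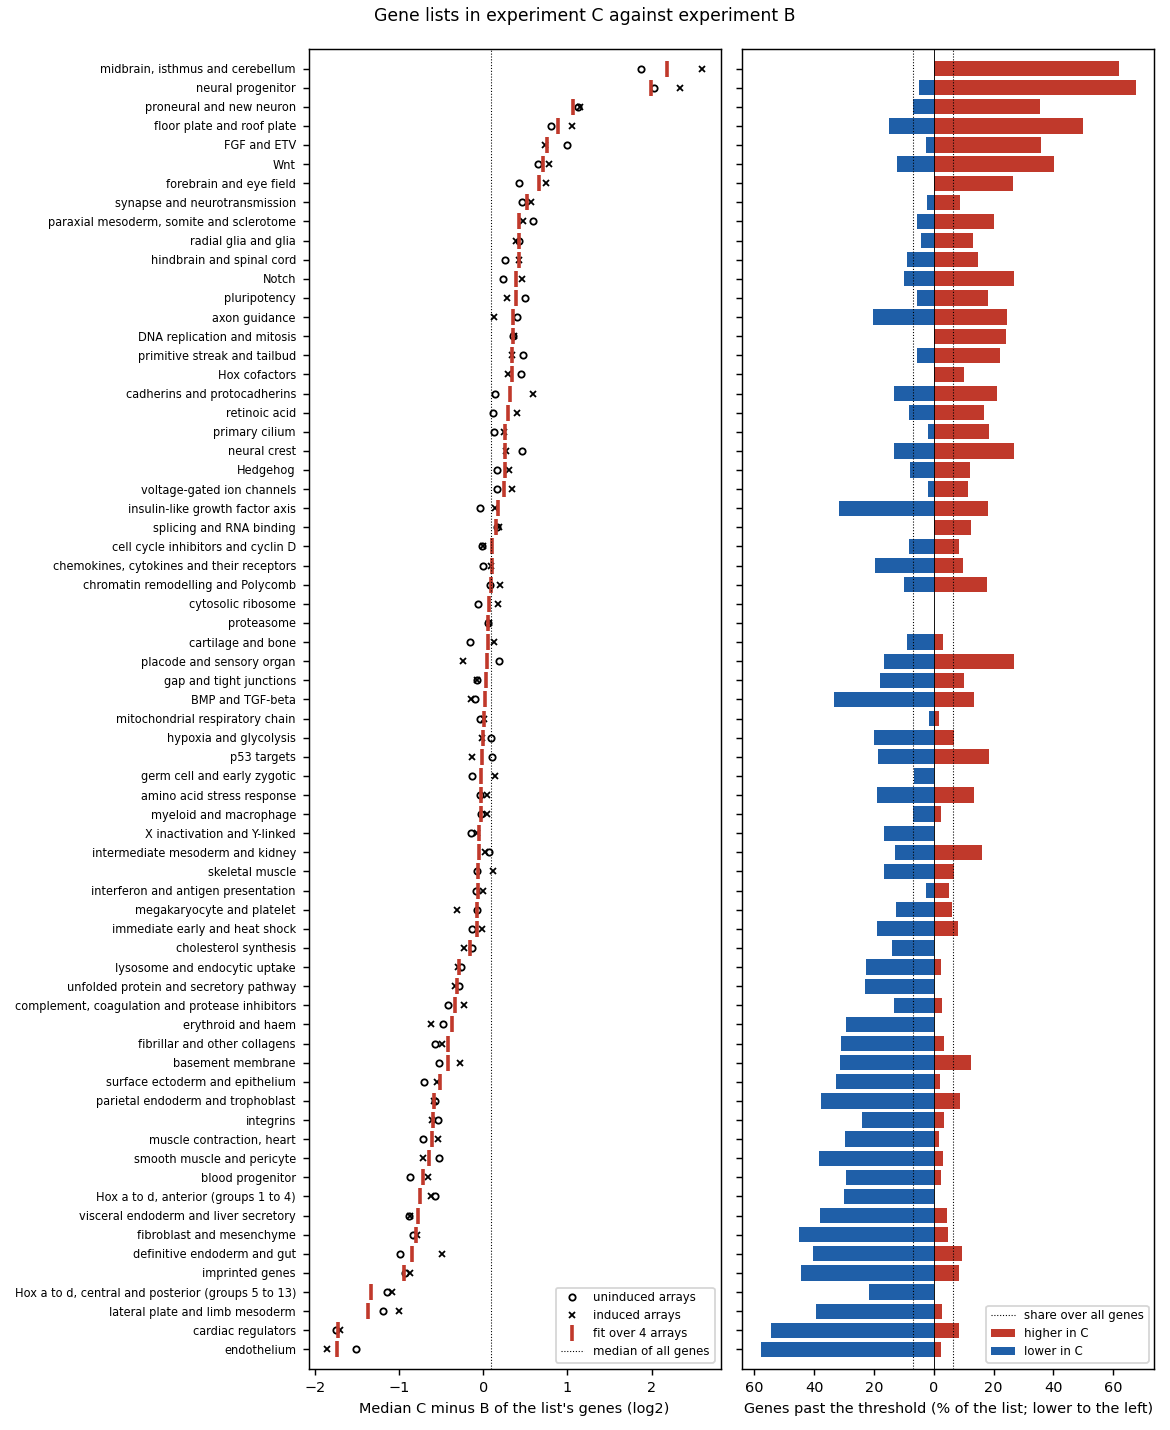
Left, median C minus B (log2) of the genes of each of 68 lists, for the uninduced arrays (circles), the induced arrays (crosses) and the fit over 4 arrays (red bars); right, the percentage of each list higher (red) and lower (blue) in C, with dotted lines at the values over all genes. Midbrain and neural progenitor lists stand at one end with medians of 2.18 and 2.00, and endothelium and cardiac regulators at the other with -1.73 each.

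Genes of the Wnt pathway were found on both sides. Of 57 listed, 23 were higher in C and 7 lower, with a median of 0.71. Among ligands, Wnt1 (4.76), Wnt3a (3.58) and Wnt9a (2.68) were higher, and Wnt2, a ligand of early heart and lung mesoderm, was lower. Wnt2 read 329 and 326 in B and 4.10 and 7.40 in C (-3.82 ± 0.45). Among receptors, Fzd3, Fzd9 and Fzd10 were higher by 2.58, 3.19 and 2.57, and Fzd4, the receptor of the vessel wall, was lower. Fzd4 read 919 and 946 in B and 119 and 89.4 in C (-2.96 ± 0.23). Among feedback targets of the pathway, Axin2 read 347 and 418 in B and 1739.7 and 2913 in C (2.51 ± 0.23 (SE), a 5.68-fold difference, adjusted p = 4.03e-04), and Sp5 differed by 4.49. Sfrp2, a secreted antagonist, read 555 and 394 in B and 3726 and 5859 in C (3.27 ± 0.23). The target Lef1 at 0.25 did not pass. The higher count went from 11 without uninduced B to 18 without uninduced C, and the lower count from 3 without uninduced B or induced B to 7 without induced C.

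Of the genes of FGF signals and their targets that passed, nearly all were higher in C, with 14 of 39 higher, 1 lower and a median of 0.76. Besides Fgf8, the ligand Fgf15 read 262 and 279 in B and 1641 and 1099.5 in C (2.24 ± 0.21). The phosphatase Dusp6, which ends ERK signalling, read 1092 and 886 in B and 4948 and 3463 in C (2.05 ± 0.18 (SE), a 4.15-fold difference, adjusted p = 3.25e-04). The receptor antagonist Il17rd differed by 2.56, the ETS factor Etv5 by 1.24 and Fgfbp3, which binds FGFs, by 3.28. The lower gene was the receptor Fgfr3, with 1016 and 1307 in B and 166 and 369 in C (-2.13 ± 0.32). Fgfr1, the receptor with a wide expression, differed by 0.01 and did not pass. Of 22 FGF ligands 4 were higher and 0 lower, the higher count going from 2 without uninduced B or induced B or uninduced C to 3 without induced C. The higher count of the whole list went from 8 without induced B to 11 without uninduced C or induced C, and Fgfr3 lost its call in some of those fits, with adjusted p as Fgfr3 (0.115 without induced B, 0.0715 without uninduced B).

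In the Notch list 8 of 30 genes were higher and 3 lower (median 0.39). The ligand Dll1 read 131 and 152 in B and 1431 and 1349 in C (3.14 ± 0.18), Jag1 differed by 2.18 and the modifier Lfng by 2.98. Nrarp, a feedback target of Notch, differed by 1.64. The receptors Notch1 and Notch2 differed by 0.42 and 0.32 and did not pass. Dlk1, a ligand-like protein of mesenchyme and an imprinted gene, fell instead, from 8355 and 8766 in B to 376 and 222 in C (-4.80 ± 0.21). In the retinoic acid list 4 of 24 were higher and 2 lower. The cellular binding proteins Crabp1 and Crabp2, which carry retinoic acid inside neural and other cells, were higher by 3.35 and 3.62. Crabp1 read 2448 and 2127 in B and 17450.3 and 31325 in C. The plasma carrier Rbp4, made by endoderm, was lower, from 3829.7 and 3155 to 323 and 305 (-3.39 ± 0.15). The synthetic enzyme Aldh1a2 at 1.46 and the degrading enzyme Cyp26a1 at -1.22 did not pass. Without any 1 array 6 of the higher Notch genes and 3 of the higher retinoic acid genes were kept. The count of lower Notch genes went from 1 without uninduced B or induced B to 3 without uninduced C or induced C.

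In the BMP and TGF-beta family most genes that passed were lower. Of 45 listed genes 15 were lower in C and 6 higher, although the median was 0.02. Bmp4, which induces mesoderm, read 4821 and 4409.8 in B and 619 and 740.0 in C (-2.74 ± 0.14 (SE), a 6.66-fold difference, adjusted p = 1.48e-05). Bmp2 and Bmp5 differed by -3.42 and -2.45, and Tgfb1 and Tgfb2 by -3.33 and -4.27. Of the 16 genes with a Bmp or Gdf symbol, nearly all of them ligands, 2 were higher and 3 lower, with a median of 0.32 and 12 pointing higher. The higher ones, Bmp6 (1.34) and Gdf10 (1.92), lost the call in each fit without 1 array. Tgfb2 read 2522 and 2400.3 in B and 109 and 111 in C. Feedback inhibitors that BMP signals induce were lower as well: Bambi by -3.05, Smad6 by -2.75 and Smad7 by -1.72. The Id genes, other targets of BMP, did not follow, with Id1 at -0.09 and Id2 at -0.39, neither past the threshold, and Id3 higher by 1.19. 11 of the 15 lower and 1 of the 6 higher genes were kept without any 1 array, and the higher count went from 1 without uninduced C or induced C to 2 without uninduced B or induced B.

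Regulators of heart formation were lower in C. Of 35 listed, 19 were lower, 3 higher and the median was -1.73. Hand2, a factor of second heart field and limb, had signals of 4865 and 6028 in B and 73.0 and 171 in C, a difference of -5.36 ± 0.30 (SE), a 41.2-fold difference, adjusted p = 2.83e-05. Tbx20 read 1626 and 2096 in B and 49.5 and 69.2 in C (-4.59 ± 0.23). Hand1, Tbx2 and Myocd, a coactivator of muscle genes, differed by -3.38, -4.11 and -3.96, and the chromatin subunit Smarcd3 by -2.78. Gata6 differed by -3.45, but 1 of 3 of its probe sets pointed the other way. The core factors Nkx2-5 at -0.76 and Tbx5 at -1.41 did not pass. The higher genes were Sema3c (4.63), Fgf8 (3.14) and Irx4 (2.20), and Sema3c and Fgf8 are also expressed in neural tissue. 10 of the lower genes were kept without any 1 array, and the count went from 11 without uninduced B or induced B to 19 without uninduced C. Irx4 lost its call in all 4, with adjusted p as Irx4 (0.197 without induced B, 0.215 without uninduced B, 0.0606 without induced C, 0.0817 without uninduced C).

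Genes of the contractile apparatus fell for fewer of their members, 16 of 54 with 1 higher and a median of -0.61. Besides Tnni1, the atrial light chain Myl7 read 1154 and 486 in B and 17.9 and 11.9 in C (-4.52 ± 0.46), and the cardiac troponin C gene Tnnc1 1679 and 1319.6 and 183 and 113 (-3.21 ± 0.24). Tnnt2, cardiac troponin T, differed by -4.50 on its brightest probe set, with 1 of 3 probe sets higher in C. The myosin heavy chain Myh6 at -0.65 and the ventricular light chain Myl2 at -1.05 did not pass. In smooth muscle and pericytes 13 of 34 were lower. Acta2, smooth muscle actin, read 15729.9 and 15072 in B and 2421 and 2019 in C (-2.79 ± 0.13), and Rgs5 of pericytes 2065 and 2273 and 74.7 and 46.4 (-4.81 ± 0.23). Mylk, myosin light chain kinase, was the higher gene of that list, with 101 and 59.0 in B and 1146 and 732 in C (3.28 ± 0.31). The lower counts went from 6 without uninduced B to 13 without uninduced C or induced C for contraction and from 7 without uninduced B to 11 without uninduced C or induced C for smooth muscle.

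Endothelium was the list with the largest share of lower genes, 45 of 78, with 2 higher and a median of -1.73 beside 6.85% lower genes over the whole array. Tek, the angiopoietin receptor TIE2, had signals of 1366 and 1399 in B and 82.3 and 59.8 in C, a difference of -3.97 ± 0.22 (SE), a 15.7-fold difference, adjusted p = 2.83e-05. Pecam1, the junction protein CD31, read 690.1 and 819 in B and 86.3 and 57.2 in C (-3.11 ± 0.28). The vessel matrix gene Mmrn2 differed by -4.38, the adhesion gene Icam2 by -4.04, and the factors Sox18 and Sox17 by -3.91 and -2.01. Nrp1, a VEGF and semaphorin coreceptor, read 6959 and 7154 in B and 448 and 258 in C (-4.30 ± 0.22). Kdr, the VEGF receptor that defines the lineage, read 1974 and 1801 in B and 354 and 28.0 in C, so the 2 arrays of C differed widely from each other (-3.85 ± 0.76). The same held for Tal1, shared by blood and vessel precursors, with 729.7 and 1015 in B and 106 and 13.5 in C (-3.79 ± 0.56). Both lost their call in some fits, with adjusted p as Kdr (0.173 without induced B, 0.186 without uninduced B) and Tal1 (0.120 without induced B, 0.0829 without uninduced B). Of the higher genes, Tal2 (5.0) is also known from midbrain neurons and Efnb2 (1.32) from neural tissue. Etv2 at -0.70 and Lmo2 at -0.06 did not pass. 16 of the lower genes were kept without any 1 array, and the count went from 16 without induced B to 42 without uninduced C.

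Blood genes fell in their abundant embryonic globins. Hbb-bh1, an embryonic beta-like globin, had signals of 27951 and 20437 in B and 1096 and 920.4 in C, a difference of -4.55 ± 0.17 (SE), a 23.4-fold difference, adjusted p = 5.20e-06. Hba-x, its alpha-like partner, read 7278 and 5037 in B and 222 and 224 in C (-4.65 ± 0.18). Of 41 erythroid and haem genes 12 were lower and 0 higher (median -0.37). Of 41 progenitor genes 12 were lower and 1 higher (median -0.71). Mecom read 1040.0 and 959.8 in B and 229 and 187 in C (-2.17 ± 0.19), although 1 of 3 probe sets pointed higher. Runx1 at -0.52 and Gata1 at -0.79 did not pass. Only 3 of the erythroid and 1 of the progenitor genes were kept without any 1 array. The progenitor count went from 1 without induced B to 14 without uninduced C, and the erythroid count from 3 without uninduced B to 10 without uninduced C. In the myeloid list 3 of 43 were lower (6.98%) and 1 higher (2.33%). In the platelet list 4 of 32 were lower (12.5%) and 2 higher (6.25%). Over all genes 6.85% were lower and 6.4% higher, so the lower myeloid and higher platelet shares were near those of all genes. The lower myeloid count went from 0 without uninduced B or induced B to 3 without induced C, and the lower platelet count from 0 without uninduced B to 3 without uninduced C.

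**Figure D4:**
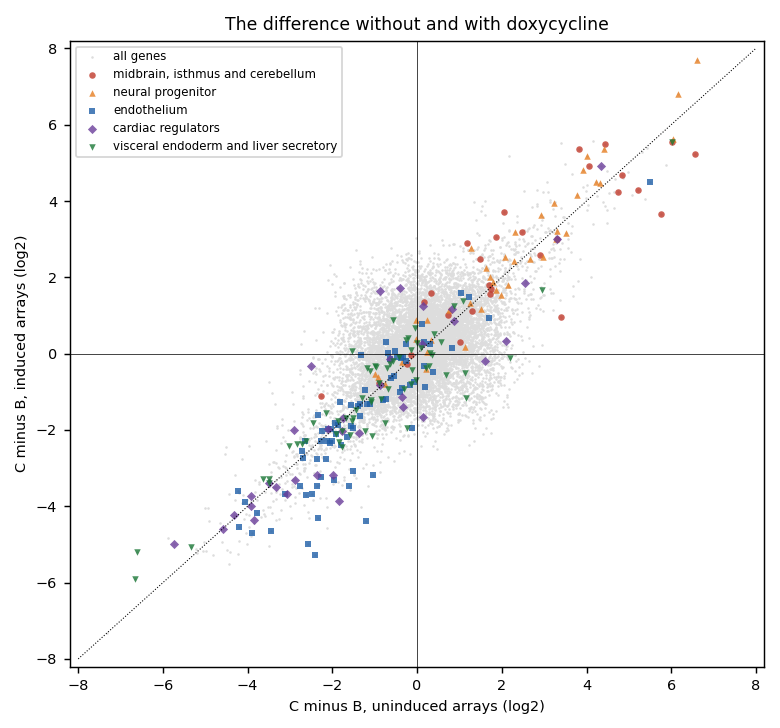
C minus B (log2) between the uninduced arrays (horizontal axis) and between the induced arrays (vertical axis) for all 18193 genes in grey, with the genes of 5 lists in colour; the dotted line marks equal values. Midbrain and neural progenitor genes gather at the upper right, and endothelial, cardiac and visceral endoderm genes at the lower left.

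Genes of mesenchyme and its matrix that passed were mostly lower in C, with 28 of 62 lower, 3 higher and a median of -0.80. Postn, the matrix protein periostin, had signals of 6062 and 4806 in B and 85.1 and 149.8 in C, a difference of -5.35 ± 0.24 (SE), a 40.9-fold difference, adjusted p = 8.96e-06. Snai2, a repressor of epithelial genes, read 12139 and 10110.0 in B and 542 and 205 in C (-4.97 ± 0.35). Twist2, Pdgfra and Pdgfrb differed by -4.12, -2.47 and -3.05, while Twist1 at 0.23, Prrx1 at 0.21 and Zeb1 at -0.12 did not pass. Ccn2, a matricellular protein, went against the list and read 335 and 321 in B and 1671 and 1449 in C (2.19 ± 0.15). Among 29 collagen genes 9 were lower and 1 higher. Col1a1 read 2259.5 and 2989 in B and 104 and 80.9 in C (-4.56 ± 0.21), and Col3a1 differed by -3.42. The higher gene was Col2a1, the collagen of cartilage and notochord, with 100.3 and 76.0 in B and 2117 and 4517 in C (4.87 ± 0.32 (SE), a 29.3-fold difference, adjusted p = 5.89e-05). In the lists for lateral plate and limb mesoderm and for basement membrane 15 of 38 and 10 of 32 were lower. Foxf1 differed by -3.09, the vessel laminin chain Lama4 by -4.37 and its partner Nid1 by -2.58. The related matrix genes Frem1 and Frem2 went apart, at -2.79 and 2.98. Without any 1 array 16 of the lower mesenchyme genes, 5 of the collagens and 9 of the lateral plate genes were kept. The mesenchyme count went from 16 without induced B to 27 without induced C, the collagen count from 5 without uninduced B to 9 without induced C, the lateral plate count from 9 without induced B to 16 without induced C and the basement membrane count from 6 without induced B to 9 without induced C.

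In the paraxial mesoderm and primitive streak lists more genes passed as higher than as lower. In the paraxial list 7 of 35 were higher and 2 lower, and in the streak list 8 of 36 and 2. Higher members that neural lists or pathways hold too include Pax3, Pax7, Dll1, Fgf8 and Wnt3a. Tbx6, a regulator of presomitic mesoderm, differed by 0.62 and did not pass. The higher streak count went from 5 without induced B or induced C to 6 without uninduced B or uninduced C.

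Endoderm genes that passed were mostly lower in C. Of 66 genes of visceral endoderm and liver secretion 25 were lower and 3 higher (median -0.78). Besides Ttr, Spink1, a trypsin inhibitor of gut and pancreas, read 8174 and 8398 in B and 183 and 233 in C (-5.20 ± 0.14 (SE), a 36.9-fold difference, adjusted p = 2.36e-06). Tdo2, the tryptophan dioxygenase of liver, read 2242 and 1623 in B and 4.30 and 25.8 in C (-5.91 ± 0.36). Afp, the fetal serum protein of visceral endoderm, did not pass, with 165 and 80.4 in B and 73.4 and 60.8 in C (-0.65 ± 0.48). Among genes of definitive endoderm and gut 17 of 42 were lower and 4 higher. The higher ones, Sox2, Trh (3.16), Fgf15 and Cxcr4 (2.10), are also expressed in neural progenitors. Foxa2, a regulator of the endoderm as well as of the floor plate, did not pass. The visceral count went from 12 without uninduced B or induced B to 24 without uninduced C, and the gut count from 10 without induced B to 17 without uninduced C or induced C.

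Of epithelial genes those that passed were mostly lower, in 15 of 46 genes with 1 higher. Krt8, a keratin of simple epithelia, read 19835 and 18719.9 in B and 1776 and 1927 in C (-3.37 ± 0.11 (SE), a 10.3-fold difference, adjusted p = 4.40e-06), and its partner Krt18 differed by -3.04. The desmosome genes Dsp, Dsg2 and Pkp2 differed by -3.54, -3.44 and -1.90, and the claudin Cldn7 by -2.44. The epidermal keratin Krt14 at 0.36 and its regulator Trp63 at 0.58 did not pass. In the list for parietal endoderm and trophoblast 17 of 45 were lower, and Plac1 of the placenta read 1446 and 888 in B and 128 and 55.0 in C (-3.47 ± 0.36). 10 of the lower epithelial genes were kept without any 1 array, and the count went from 10 without uninduced B or induced B to 15 without induced C. The parietal endoderm and trophoblast count went from 10 without induced B to 16 without uninduced C.

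Hox genes, which mark position along the trunk, were lower in C or did not pass. Of 33 on the array 8 were lower and 0 higher, with a median of -1.34. Hoxd9 read 1539 and 1980.4 in B and 106 and 97.8 in C (-3.87 ± 0.20 (SE), a 14.6-fold difference, adjusted p = 1.73e-05). Hoxd8, Hoxb6 and Hoxc8 differed by -3.19, -3.12 and -2.82, and these 4 were the genes kept without any 1 array, with the count going from 4 without uninduced B or induced B to 9 without uninduced C or induced C. The anterior genes Hoxa2 at 1.27 and Hoxa3 at 0.86, which are active in the hindbrain, did not pass. Hoxb4 did not pass (-1.64 ± 0.57), and 1 of 2 of its probe sets pointed higher in C. Cdx2, a regulator of posterior Hox genes, differed by -1.20 and lost its call in some fits, with adjusted p as Cdx2 (0.116 without induced B, 0.127 without uninduced B).

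**Figure D5:**
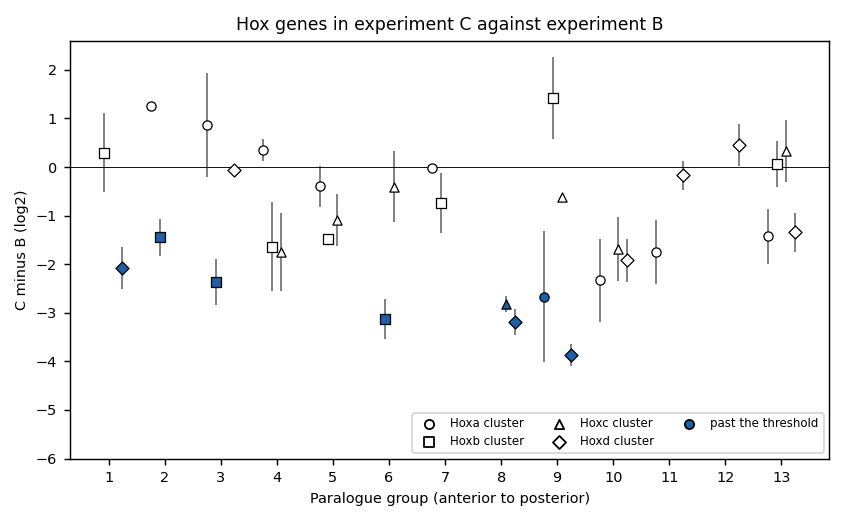
C minus B (log2) of the 33 Hox genes by paralogue group, with marker shape by cluster, filled markers for genes past the threshold and grey lines joining the uninduced and the induced difference. Markers lie mostly below 0, and the 8 filled ones are all lower in C.

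Imprinted genes, expressed from 1 parental copy and many of them growth regulators, were lower in C for 16 of 36, higher for 3, with a median of -0.94. Igf2, the fetal growth factor, read 29976 and 29055 in B and 5614 and 5905 in C (-2.35 ± 0.11 (SE), a 5.11-fold difference, adjusted p = 1.37e-05). Its clearing receptor Igf2r, which is expressed from the other parental copy, was lower too, from 8493 and 7789 to 1919.7 and 1892 (-2.08 ± 0.11). The growth restrainers Cdkn1c and Phlda2 differed by -2.19 and -4.75, and the noncoding Airn by -2.48. Members expressed from either parental copy were thus among the lower genes. Grb10 at -0.99 and Mest at 0.17 did not pass. In the wider axis of insulin-like growth factors, Irs4, a receptor substrate of the hypothalamus and other tissues, rose from 57.6 and 92.2 in B to 3159 and 1809 in C (4.71 ± 0.29), and Igfbp2, a binding protein of neural tissue, by 1.94. Igfbp4 and Igfbp5 differed by -1.48 and -1.53. 10 of the lower imprinted genes were kept without any 1 array, and the count went from 10 without induced B to 14 without uninduced C or induced C, with the higher count going from 0 without uninduced B or induced B to 3 without uninduced C.

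The Dlk1 and Meg3 domain of chromosome 12 carries noncoding RNAs that host microRNAs. Meg3 read 21404 and 21985 in B and 5549 and 5436 in C (-1.98 ± 0.11), and the adjoining Mirg and Rian differed by -1.34 and -0.92. MicroRNA hairpins were counted without part of the genome, so the counts do not cover the whole array. Of those counted, 520 lay inside a tested gene, 95 of them inside a gene that passed. Of the 461 host genes counted, 37 were higher (8.03%) and 42 lower (9.11%). Over all genes, with that part included, the shares were 6.4% and 6.85%. Mirg holds 10 of these hairpins and Rian 3. The array read the host transcripts only, so the mature microRNAs below show what each host carries and were not measured. They were chosen after the values of the hosts had been seen, to cover vessel, matrix, imprinted and neural hosts. Sequences are from RefSeq (GRCm38.p6), 5′ to 3′, with the seed, bases 2 to 8, in capitals, and no seed is shared among the 6.
miR-126a-3p: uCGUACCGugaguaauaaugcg
miR-218-5p: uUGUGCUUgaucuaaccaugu
miR-370-3p: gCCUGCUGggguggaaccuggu
miR-410-3p: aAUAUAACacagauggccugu
miR-153-3p: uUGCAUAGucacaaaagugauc
miR-488-3p: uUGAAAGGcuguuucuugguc
The host of miR-126a-3p is Egfl7, a secreted protein of endothelium, which read 1529.5 and 2024 in B and 408 and 538 in C (-1.87 ± 0.19). miR-218-5p lies in both Slit2 and Slit3, guidance ligands that differed by -0.82 and -3.22. miR-370-3p lies in Rian and miR-410-3p in Mirg. On the neural side miR-153-3p lies in Ptprn2, a phosphatase-like protein of secretory granules, with 50.9 and 56.5 in B and 292 and 315 in C (2.15 ± 0.35). miR-488-3p lies in Astn1, a neuronal adhesion protein, with 5.4 and 27.2 in B and 136 and 291 in C (2.71 ± 0.57). Mir124-2hg, the host of a neuronal microRNA, differed by 4.18 ± 0.47. Hosts that lost their call in fits without 1 array were, with adjusted p, Slit2 (0.0658 without induced B, 0.0822 without uninduced B), Rian (0.0698 without induced B, 0.150 without uninduced B, 0.0556 without induced C), Mirg (0.0754 without induced B), Ptprn2 (0.0649 without induced B, 0.0708 without uninduced B, 0.0761 without induced C, 0.0570 without uninduced C) and Astn1 (0.0913 without induced B, 0.176 without uninduced B, 0.139 without induced C, 0.0501 without uninduced C).

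Guidance and adhesion lists held genes of both directions. Of 49 guidance genes 12 were higher and 10 lower. Dcc, the netrin receptor of axons, read 3.70 and 1.10 in B and 551 and 454 in C (4.62 ± 0.44), while Unc5b, a netrin receptor of vessels, differed by -2.78. Epha7, Efna2 and Efna5 differed by 2.46, 1.59 and 1.51, and Efna1, an ephrin of vessels, by -3.91. Among 38 cadherins 8 were higher and 5 lower. Pcdh8 read 102 and 60.3 in B and 2709 and 2159.8 in C (4.64 ± 0.24), and the planar polarity genes Celsr1 and Celsr2 differed by 2.73 and 2.56. Cdh3, P-cadherin, read 1338 and 1332 in B and 140.0 and 196 in C (-2.87 ± 0.20), whereas Cdh2, the N-cadherin of neural tissue and heart, differed by 0.34 and did not pass. Among 29 integrins 7 were lower and the higher one was Itga6, a laminin receptor, at 1.24. Of the 11 annexins, membrane-binding proteins, 6 were lower and 1 higher, and Anxa2 read 9374 and 6821 in B and 1362 and 1204 in C (-2.63 ± 0.16). Without 1 array the higher guidance count went from 7 without uninduced B or induced C to 9 without uninduced C and the lower one from 5 without uninduced B to 9 without uninduced C or induced C. The higher cadherin count went from 4 without induced B to 6 without uninduced B or induced C and the lower one from 1 without induced B to 5 without uninduced C or induced C. The lower integrin count went from 3 without uninduced B or induced B to 7 without induced C, and the lower annexin count from 4 without uninduced B to 6 without induced B or uninduced C or induced C.

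Few genes of the cytosolic ribosome, the proteasome and the respiratory chain passed. None of the 43 listed cytosolic ribosomal protein genes found on the array, of 77 listed, or the 35 proteasome genes passed in either direction (limma), with medians of 0.06 and 0.06. At an unadjusted p under 0.05 1 ribosomal and 3 proteasome genes stood. Of 56 genes with an Rpl or Rps symbol 2 were higher and 2 lower. They were Rpl7l1 (0.45) and Rps4l (-1.18), which are named for their likeness to ribosomal proteins, and the ribosomal S6 kinases Rps6ka3 (0.55) and Rps6ka6 (-0.71). These 4 were named after their values were seen, and each lost its call in at least 1 fit without 1 array. Of 62 genes of the respiratory chain 1 was higher and 1 lower. Other lists of general cell functions held more. Lower were 9 of 39 secretory pathway genes (0 higher), 9 of 40 lysosome genes (1 higher) and 9 of 45 hypoxia and glycolysis genes (3 higher). Higher were 6 of 48 splicing genes (0 lower) and 9 of 51 chromatin genes (5 lower). Over all genes 6.4% were higher and 6.85% lower. Most of these calls were not kept in every fit without 1 array. DNA replication and mitosis genes were shifted slightly upward in C, with 14 of 58 higher, 0 lower, a median of 0.36 and 52 of 58 pointing higher. The helicase gene Mcm7 read 11270.0 and 10013 in B and 14647 and 15164 in C (0.49 ± 0.12), and Plk1 of mitosis differed by 0.69. This shift depends on the scaling: after centring on array medians 7 of the 58 passed. It also depends on the arrays, since the count went from 0 without uninduced B to 7 without uninduced C and no gene of the list was kept in all 4 fits. The pluripotency genes were mixed, with 10 of 55 higher and 3 lower, and Pou5f1 at 0.72 did not pass. The higher count went from 5 without uninduced B or induced B to 7 without induced C. Sox2 and Otx2 are in that list and in neural lists, and Dppa5a, of the early embryo, read 668 and 527 in B and 2250.3 and 2249 in C (1.89 ± 0.15).

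Families were also defined by gene symbol alone, without regard to tissue. Of 8 Pax factors 4 were higher and 0 lower, of 14 T-box factors 0 and 3, and of 19 Sox factors 6 and 4. Nkx factors had 0 higher and 0 lower of 12 (limma), and 2 stood at an unadjusted p under 0.05. Of the 76 mitochondrial ribosomal proteins 4 were higher (5.26%) and 2 lower (2.63%). Of the 44 keratins 0 were higher and 4 lower (9.09%), with a median of 0.17. Over all genes 6.4% were higher and 6.85% lower. Without 1 array the higher Pax count went from 2 without induced B to 3 without uninduced B or uninduced C or induced C, the lower Sox count from 2 without uninduced B or induced B to 3 without uninduced C or induced C and the higher mitochondrial ribosomal count from 0 without uninduced B or induced B or induced C to 2 without uninduced C. Across chromosomes medians ran from 0.01 on chromosome 18 to 0.14 on chromosome 17. On the X chromosome 6.16% of genes were higher and 9.24% lower, and on chromosome 12 8.84% and 8.68%. Xist, the RNA of X inactivation, differed by 0.07 ± 0.54 and did not pass, with a sign that turned under other scalings.

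Of the 2411 genes that passed, 1825 were in none of the 68 lists, 915 higher and 910 lower. The lists hold only 2133 of the 18193 genes, so most genes that did not pass are in none of them either. The largest rises among them in genes of known function were Cntnap2, a neurexin-like protein of axons, with 132 and 113 in B and 4759 and 3547 in C (4.87 ± 0.18), and Mycl, a MYC family factor, with 8.2 and 38.6 and 891 and 1011 (4.62 ± 0.40). Fez1 of axon growth, Tagln3 of neurons and Mfsd2a, a lipid transporter of brain vessels and other tissues, differed by 4.23, 3.78 and 4.16. The poorly described Gm3515, Ildr2, Wscd1 and Fam181b differed by 5.29, 4.72, 4.46 and 4.44. Of the lower genes, Bnc1, a zinc finger factor of mesothelium and epithelium, read 3721 and 2986 in B and 82.5 and 61.2 in C (-5.22 ± 0.20). Tac2, a tachykinin precursor, read 1020.0 and 1179 in B and 9.10 and 15.8 in C (-5.17 ± 0.32). Prdm6 of smooth muscle, Hlx of gut mesenchyme and Pgf, the placental growth factor, differed by -5.04, -4.07 and -4.25. Apela, a peptide ligand of the apelin receptor, differed by -3.96. The other genes of the 30 largest falls were Ctla2a (-5.11), a protease inhibitor, 2610528A11Rik (-5.07), Mfap4 of microfibrils (-4.98), Stard8 (-4.76), Lypd6 (-4.48), Zfp9 (-4.35) and Pcolce, an enhancer of procollagen processing (-4.27). Mfap4 and Pcolce are members of a list. Among the 25 largest rises outside the lists were also Dtx4, the copper carrier Cp, Minar2, Gm2102, the zinc finger factor Glis3, Samd5, Prr36, Klhl14, Pantr1, Scg5, Garem2, Plch1, Pcp4l1 and Fut9, from 3.5 for Fut9 to 4.22 for Dtx4. Among these, Scg5, Garem2 and Fut9 lost the call in some fits without 1 array, with adjusted p as Scg5 (0.0686 without induced C, 0.0723 without uninduced C), Garem2 (0.0546 without induced B, 0.0655 without uninduced B) and Fut9 (0.0511 without induced B, 0.0509 without uninduced B). Among the 25 largest falls outside the lists were also Adgra2 of brain vessels, Cobll1, Crispld2, Igsf11, Tmem204, Emp2, Myrf, the myelin protein Pmp22, Ahnak, Zfp711, Ppp1r14a, Sertad4, Svep1 and Rnf128, from -4.21 for Adgra2 to -3.76 for Rnf128. For Kcna1, Wscd1 and Cx3cl1 among the leading genes 1 probe set pointed the other way, and of 1527 genes with several probe sets that passed 383 had one of opposite sign.

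Experiment A, which the comparison did not use, took positions that differed by tissue. On a scale where the mean of B is 0 and that of C is 1, the genes higher in C stood at a median of 0.49 in uninduced A and 0.51 in induced A, and the lower genes at 0.50 in each. The genes were picked for their distance between B and C, so a middle position is a description only. The mean of A lay between B and C for 914 of the 1165 higher and 901 of the 1246 lower genes. Lower endothelial genes stood at 0.95 and 0.57, near C without doxycycline, and lower erythroid genes at 1.25 and 0.75. Lower epithelial genes stood at 0.06 and 0.20, near B, and lower genes of definitive endoderm at 0.21 and 0.18. The higher forebrain genes stood at 0.85 and 0.64 and the midbrain genes at 0.44 and 0.52. Otx2 read 3861 and 2779.5 in A, level with C, and En2 54.3 and 62.9, close to B. Krt8 read 9105 and 8765 in A, Pecam1 7.80 and 105 and Tnni1 805 and 1208. The uninduced array of A had an Actb ratio of 3' to 5' signal of 2.88, above the other arrays, and its part in these positions was not tested.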

How the data were processed

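RNA from whole day 6 embryoid bodies was hybridised to 1 Affymetrix Mouse Genome 430 2.0 array per culture, 6 in all. The authors deposited signal intensity values on a linear scale, computed with MAS5 per the submitters' processing notes; a trimmed mean of 500 on each array was found from the values. Scaling to a common mean hides any difference in total RNA.

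Of 45101 probe sets 64 controls were left out. An offset of 18.8 (the 20th percentile of all values) was added before log2. C minus B was fitted on the 4 arrays of experiments B and C with limma 3.58.1 (R 4.3.3), group means, eBayes with an intensity trend, two-sided, with Benjamini-Hochberg adjustment over 45037 probe sets and a threshold of 0.05. The fit was tested on simulated data. The labels call the experiments biological replicates, and nothing says how the cultures of 1 experiment relate, so p-values describe these 2 experiments only. The number of arrays limits the precision.

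Probe sets were named through the platform annotation and RefSeq: 34945 for 1 gene, 932 for several and 9160 for none, the last 2 kinds being tested but not named. The text names the 30 largest rises and falls, the largest outside the lists, members of 68 gene lists (2133 of 2336 listed symbols on the array), Hoxb4 and Xist. The contrast, the lists and the families were chosen with earlier results of these data known, so lists are described by counts and medians and were not tested. Doxycycline state could pair the arrays of B and C, but induced minus uninduced correlated by only 0.03 between the 2 experiments over probe sets, so the fit has no block. Alternatives were other offsets, a signal filter, quantile and median scaling, all 6 arrays, no trend, doxycycline state as a block and each array left out.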

Additional observations from a re-analysis of the deposited data

How the results depend on the processing

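No gene or probe set that passed changed direction under any alternative. The fits with a block, with all 6 arrays and without the trend give the same difference as the main fit. Direction could therefore not change in them. All 2411 genes that passed had the same sign in both doxycycline states, against 69.3% of all genes. The spread in the test is that between these states, so a gene with opposite signs could hardly pass. The shared sign is therefore a description and no further support. Of the 218 named genes that passed, many of them picked for large differences, 157 passed under every alternative other than leaving out an array. They do not stand for all genes that passed. Counts moved: with doxycycline state as a replicate block, 3948 probe sets were higher and 3345 lower (2166 and 1917 genes), where the arrays of a block share the labelled doxycycline state but their deviations correlated by only 0.03. Fitting all 6 arrays gave 1024 and 1267 probe sets (632 and 771 genes), and leaving out the intensity trend 230 and 369 (153 and 222 genes). Median centring gave 1218 higher probe sets (735 genes) and 2538 lower. Without 1 array each, higher probe sets ranged from 456 to 1135 and lower ones from 539 to 1573, and higher genes from 307 to 717 and lower ones from 361 to 932. The lone array is then assumed to vary like the pair of the other experiment. No offset, an offset of 100, a filter at the 40th percentile of the mean signal and quantile normalization kept each count within 1.5 times. The cause of these shifts was not tested.

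Named genes that did not pass changed sign as follows. Xist was at -0.068 with quantile normalization, at -0.078 with median centring and between -0.53 and 0.68 without 1 array. Fgfr1 was at -0.14 with median centring and between -0.21 and 0.23 without 1 array. Without 1 array Id1 lay between -0.21 and 0.039, Lmo2 between -0.39 and 0.27, Nkx2-5 between -1.76 and 0.23 and Runx1 between -1.20 and 0.16. All 23 lists with a median beyond 0.5 kept its sign under every alternative, and 20 of the 68 lists, all nearer 0, changed it somewhere. In arrays simulated with the spread of these 4, with 200 of 45037 probe sets changed, the fit called 1 of 50 probe sets changed 2-fold, 14 of 50 changed 4-fold, 35 of 50 changed 16-fold and 39 of 50 changed 64-fold, with a stricter adjustment than in the real arrays, where more probe sets passed. The simulation took the observed spread of each probe set as its true spread, so these counts need not hold for the real fit. Each experiment was run once.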
